A study of Homo sapiens and Mus musculus with 20 samples.

Results

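The genes described here are those of IMR90 cells whose level differed at least 2-fold from untreated cells with both A485 and MS-275, in every replicate of both. IMR90 is a wild-type human lung fibroblast cell line. A485 inhibits the lysine acyltransferase p300, an enzyme that writes acetyl and lactyl groups onto histones, and MS-275 inhibits class I histone deacetylases, which erase them. The paper reports that both inhibitors lowered histone lactylation in these cells, while histone acetylation fell with A485 and rose with MS-275. The 4 groups of 2 libraries each were A485-treated cells with their untreated controls (Control2), and MS-275-treated cells with theirs (Control3), all measured by bulk RNA-seq. The labels of these groups state neither a dose nor a time, and nothing says whether replicates came from separate cultures, so p-values measure only the spread between these libraries, which may be technical. Of the 16683 genes listed for A485 and the 16417 listed for MS-275, 15548 were in both, and 15130 of those had a mean normalized count of at least 10 in each. For each of these genes, log2((treated + 1)/(control + 1)) was taken between the libraries that carry the same replicate number. A gene entered 1 of 4 quadrants when all 4 values passed an absolute 1 and the 2 values of each inhibitor had the same sign. This gave 500 genes of 15130. In 255 of them the inhibitors had opposite effects, with 206 lower under A485 and higher under MS-275 and 49 higher under A485 and lower under MS-275. In the other 245 the effects were shared, with 120 genes higher and 125 lower under both.

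p300 and its relative CBP are recruited to enhancers and promoters by DNA-bound transcription factors and acetylate the nearby histones. The class I deacetylases HDAC1, HDAC2 and HDAC3 act within repressor complexes that remove those groups, and both kinds of enzyme also act on lactyl groups. Genes that depend on active enhancers, such as those of the fibroblast secretory programme, are known to be sensitive to p300 inhibition, and genes of other lineages kept silent by deacetylases are known to be sensitive to deacetylase inhibitors.

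The quadrants were selected on the measured differences, so values of the members in these libraries are given as a description, with no test. Under A485, 735 genes (4.86%) passed 1 in both replicate numbers upwards and 1528 (10.1%) downwards. Under MS-275 the figures were 815 (5.39%) and 741 (4.9%). The quadrant lower under A485 and higher under MS-275 held 13.5% of the genes lower under A485 and 25.3% of those higher under MS-275. The quadrant lower under both held 8.18% of the genes lower under A485 and 16.9% of those lower under MS-275. Genes higher under both made up 16.3% and 14.7% of the respective lists, and genes higher under A485 and lower under MS-275 made up 6.67% and 6.61%. Across the 15130 genes, which are not independent replicates, Pearson's r between the A485 and MS-275 values was 0.036 for replicate number 1 and 0.0023 for number 2, against 0.757 between the 2 numbers of A485 and 0.721 between the 2 numbers of MS-275. When libraries were scaled to equal totals, the quadrants held 135 genes lower under A485 and higher under MS-275, 117 of the opposite kind, 155 higher and 120 lower under both. Another 43 genes passed 1 in all 4 values but with the 2 numbers of an inhibitor on opposite sides, and were left out.

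**Figure D1:**
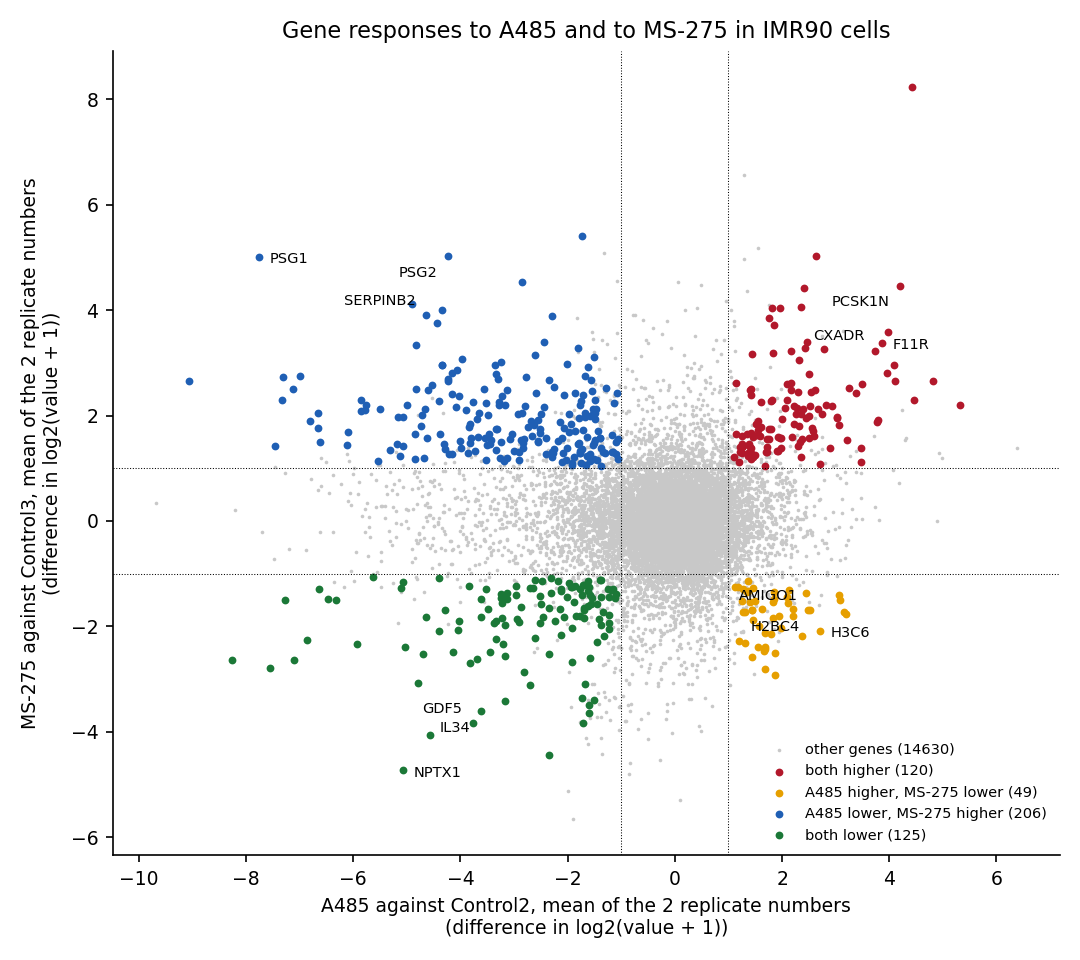
Mean of the 2 within-number log2 differences of each gene, A485 against Control2 on the horizontal axis and MS-275 against Control3 on the vertical axis, both as differences in log2(normalized count + 1). With the deposited scaling shown here, coloured points are the 500 genes of the 4 quadrants, grey points the other 14630 genes, and dotted lines mark an absolute 1. The upper left quadrant holds the most genes (206) and the lower right the fewest (49).

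Depth over listed genes ran from 39194881 to 46971227 reads in the 8 libraries. Each experiment had been normalized on its own, so levels are compared within an experiment only. In the MS-275 experiment the libraries numbered 2 stood apart from those numbered 1 in both the treated and the control group. EP300, the gene of p300, had normalized counts of 2887 and 504 with MS-275 and of 3912 and 613 in Control3. Under limma with Benjamini-Hochberg adjustment and a limit of 1 on the log2 fold change, 3.31% of 16084 genes were called higher and 7.06% lower with A485, that is 532 and 1135 genes. When libraries were instead scaled to equal totals these counts were 1669 and 915, and the median of all genes lay at 0.40 on the log2 scale. Without 1 of the 4 libraries, A485 gave 2 to 196 higher and 114 to 648 lower calls, with 3 and 114 without A485 library 1 and 2 and 165 without A485 library 2. In this fit, which did not pair libraries by replicate number, none of 15883 genes (0%) was called with MS-275, although 1730 had an unadjusted p under 0.05. A fit with the replicate number as a block did call genes, with counts given in the closing section, so the absence of calls depended on the model. This count depended on single libraries, since 292 genes were called higher and 98 lower without Control3 library 1, and 270 and 149 without Control3 library 2. The difference between the effects, A485 minus MS-275, was called higher for 0.608% of 15130 genes (92) and lower for 3.2% (484), or for 224 and 330 genes at equal totals, and without 1 of the 8 libraries for 5 to 65 and 125 to 372 genes. Of 10 fibroblast markers, all were listed. Their summed level was 12931 and 13943 CPM with A485 against 31679 and 31913 in Control2, and 25305 and 13795 with MS-275 against 30535 and 18867 in Control3. In bulk RNA, fewer cells of a type and less RNA per cell cannot be told apart. Epithelial markers summed to 30.1 to 86.6 CPM, with CDH1 and ESRP1 not listed. Endothelial markers summed to 3.53 to 33.8 CPM with PECAM1 and CDH5 not listed, and immune markers to at most 1.53 with PTPRC not listed.

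The promoter windows of members were read from RefSeq (GRCh38.p14), from 250 bases before to 50 bases after the gene start, and 334 of the 500 members had one. Motifs were searched on both strands. The letters TGACTCA, bound by AP-1, a dimer of Fos and Jun proteins, were in 16 of 130 windows (12.3%) of genes lower under A485 and higher under MS-275. They were in 2 of 91 windows (2.2%) of genes higher under both, in 0 of 31 of genes higher under A485 and lower under MS-275, and in 3 of 82 (3.66%) of genes lower under both. Of the 10776 tested genes with a window, 3.19% held these letters, as did 4.92% of all 27305 promoters. Windows of 3 members of the first group are shown because they hold these letters, with the AP-1 match in capitals (TGACTCA or its reverse complement). LUCAT1 (chr5:91314353-91314652, minus strand) has it at -52 from the gene start, F3 (chr1:94541710-94542009, minus strand) at -210 and F2RL2 (chr5:76623354-76623653, minus strand) at -37. F3 and F2RL2 were chosen after their values were seen.
LUCAT1: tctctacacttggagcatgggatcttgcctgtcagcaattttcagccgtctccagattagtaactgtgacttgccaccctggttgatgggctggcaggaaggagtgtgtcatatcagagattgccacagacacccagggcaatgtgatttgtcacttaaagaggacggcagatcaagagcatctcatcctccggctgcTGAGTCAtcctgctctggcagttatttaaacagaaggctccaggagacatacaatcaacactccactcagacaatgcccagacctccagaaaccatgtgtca
F3: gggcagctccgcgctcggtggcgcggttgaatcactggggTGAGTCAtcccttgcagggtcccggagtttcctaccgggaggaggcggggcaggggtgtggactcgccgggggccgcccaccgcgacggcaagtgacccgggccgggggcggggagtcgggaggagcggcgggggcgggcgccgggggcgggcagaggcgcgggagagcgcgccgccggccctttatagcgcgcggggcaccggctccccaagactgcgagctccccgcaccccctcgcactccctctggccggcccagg
F2RL2: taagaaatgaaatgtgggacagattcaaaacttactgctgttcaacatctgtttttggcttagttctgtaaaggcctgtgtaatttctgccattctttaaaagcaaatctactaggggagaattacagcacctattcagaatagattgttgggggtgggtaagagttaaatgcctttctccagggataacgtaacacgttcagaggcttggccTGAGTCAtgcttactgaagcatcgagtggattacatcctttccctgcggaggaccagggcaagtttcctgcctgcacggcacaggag

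The same 130 windows held TATAAA in 18.5%, against 5.59% of the tested genes and 11.95% of all promoters, and GGGCGG, the Sp1 box, in 47.7%, against 69.8% and 44.6%. Their median number of CpG dinucleotides was 15, against 26 in the tested genes. In the genes higher under both inhibitors these shares were 6.59% and 72.5% with a median of 26 CpG. A match is a run of letters and does not show that a factor binds there.

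The 3 histone genes of the quadrant higher under A485 and lower under MS-275 are shown next, because each window holds 3 CCAAT boxes, the element bound by NF-Y and common in histone promoters, in capitals as CCAAT or its reverse complement. They are H2BC4 (chr6:26123877-26124176, minus strand), H3C6 (chr6:26223928-26224227, plus strand) and H2BC21 (chr1:149886633-149886932, minus strand). CCAAT itself was in 32.3% of the windows of that quadrant and in 36.4% of those of the tested genes.
H2BC4: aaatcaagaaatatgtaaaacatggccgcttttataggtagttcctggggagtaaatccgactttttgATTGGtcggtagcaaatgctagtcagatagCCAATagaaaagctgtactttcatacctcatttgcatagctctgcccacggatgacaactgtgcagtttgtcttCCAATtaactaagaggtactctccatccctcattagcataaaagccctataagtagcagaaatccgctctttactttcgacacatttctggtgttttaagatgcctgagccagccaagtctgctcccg
H3C6: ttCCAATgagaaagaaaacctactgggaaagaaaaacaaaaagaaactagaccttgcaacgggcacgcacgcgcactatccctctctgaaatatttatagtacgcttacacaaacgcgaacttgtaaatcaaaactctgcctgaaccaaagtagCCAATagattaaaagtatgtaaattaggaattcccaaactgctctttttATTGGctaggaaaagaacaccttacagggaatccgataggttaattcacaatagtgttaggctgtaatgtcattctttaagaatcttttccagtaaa
H2BC21: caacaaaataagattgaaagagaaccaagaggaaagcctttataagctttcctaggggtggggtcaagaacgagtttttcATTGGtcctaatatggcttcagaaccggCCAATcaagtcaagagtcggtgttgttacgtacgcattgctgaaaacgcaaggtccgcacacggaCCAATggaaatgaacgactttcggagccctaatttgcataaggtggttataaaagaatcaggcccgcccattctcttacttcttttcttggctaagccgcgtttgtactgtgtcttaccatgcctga

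For the genes lower under both, the window of ASNS (chr7:97872359-97872658, minus strand) is shown, since 5 of these genes belong to amino acid synthesis. The capitals mark TGATGNAA, the core of the element bound by ATF4 with C/EBP proteins, at -68. It was in 3 of 82 windows (3.66%) of genes lower under both, in 1.64% of those of the tested genes and in 3.67% of all promoters. The share was 3.08% in genes lower under A485 and higher under MS-275, 3.23% in the opposite kind and 2.2% in genes higher under both.
ASNS: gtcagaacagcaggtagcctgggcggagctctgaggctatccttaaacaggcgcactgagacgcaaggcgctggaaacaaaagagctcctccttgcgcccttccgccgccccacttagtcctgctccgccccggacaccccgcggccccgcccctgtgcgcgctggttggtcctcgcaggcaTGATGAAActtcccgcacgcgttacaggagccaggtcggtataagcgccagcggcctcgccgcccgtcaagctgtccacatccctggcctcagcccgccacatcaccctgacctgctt

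Genes lower under A485 and higher under MS-275 formed the largest of the 4 quadrants under the deposited scaling, while at equal totals genes higher under both were more (155 against 135). Their median log2 fold change was -2.86 with A485 (range -9.06 to -1.05) and 1.77 with MS-275 (range 1.04 to 5.41). Treated and control libraries did not overlap for 202 of the 206 under A485 and for 194 under MS-275. Over all 15130 genes, A485 libraries lay below their controls without overlap for 31.8% and above them for 29.6%, and MS-275 libraries above for 18.1% and below for 19.9%. Selection on all 4 values nearly fixes the members' counts, here and in the other quadrants, so nothing is read from them. Of the 206, 22 belonged to a gene list assembled for these cells, among them 5 growth factors, 4 genes of matrix proteolysis and 3 matrix glycoproteins.

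PSG1, a pregnancy-specific glycoprotein normally secreted by the placenta, led the quadrant by the smallest of its 4 values. Its normalized count was 0 and 0 with A485 against 248 and 186 in Control2, and 4622 and 4438 with MS-275 against 217 and 88.9 in Control3. With 3 reads per library taken as the floor, PSG1 was at least 69.6-fold lower with A485. PSG2 was measured at 0.843 and 0 with A485 against 43.9 and 13.5, and at 228 and 248 with MS-275 against 16.8 and 2.02. PSG4 and PSG5 were members as well. PSG4 was at 65.7 and 58.8 with A485 against 3532 and 5366, and at 7696 and 9307 with MS-275 against 2692 and 2555. PSG5 was at 19.4 and 3.56 with A485 against 1223 and 1461, and at 4393 and 4744 with MS-275 against 912 and 708. PSG9, the only other gene of the family that was tested, was also below 0 in both values of A485 and above 0 in both of MS-275. The family was picked out after its values were seen, and its genes are near-identical copies on chromosome 19 whose reads may be split between them in counting, so the values of single copies are uncertain.

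Genes that act on matrix proteins and on plasmin stood together. MMP1, interstitial collagenase, was at 107 and 40.1 with A485 against 17830 and 6472 in Control2, and at 46988 and 42622 with MS-275 against 7301 and 11384 in Control3. MMP3, stromelysin, lies 37641 bases from it and was at 24.4 and 131 with A485 against 192 and 452, and at 557 and 788 with MS-275 against 97.1 and 110. SERPINB2, the plasminogen activator inhibitor of macrophages and stressed cells, was at 16.01 and 29.4 with A485 against 498 and 651, and at 1959 and 12551 with MS-275 against 132 and 828. In these 3 genes the libraries of each pair of groups were separate, although the 2 MS-275 libraries of SERPINB2 lay far apart, as did its controls. TIMP4, an inhibitor of metalloproteinases, had within-number differences of -1.45 and -2.49 with A485 and of 2.38 and 1.67 with MS-275.

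The growth factor members were IGFBP3, INHBA, NRG1, EREG and GDNF. IGFBP3, which binds and carries insulin-like growth factors, was at 1908 and 1187 with A485 against 42773 and 21744, and at 94131 and 281590 with MS-275 against 7887 and 12969. INHBA, the subunit of activin A, was at 228 and 338 with A485 against 9352 and 10707, and at 26114 and 16331 with MS-275 against 7479 and 3676. NRG1 and EREG, ligands of the ErbB receptors, differed by -3.61 and -2.54 and by -1.54 and -1.47 with A485, and by 1.65 and 1.48 and by 3.09 and 3.15 with MS-275. GDNF, a neurotrophic factor, differed by -1.81 and -1.95 with A485 and by 1.30 and 1.14 with MS-275. WNT16, a secreted Wnt ligand that was not on the list, was at 22.8 and 52.6 with A485 against 238 and 479, and at 955 and 1217 with MS-275 against 104 and 170. GDF15, a secreted stress cytokine counted among the p53 targets, was at 170 and 217 with A485 against 1203 and 2537, and at 10130 and 17273 with MS-275 against 1994 and 4115. For INHBA, WNT16 and GDF15 no treated library overlapped its controls with either inhibitor.

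Matrix members were LUM, the collagen-binding proteoglycan lumican, THBS1, thrombospondin 1, FBLN2, fibulin 2, and COL4A1, a basement membrane collagen chain. LUM was at 1154 and 1767 with A485 against 9383 and 10481, and at 67079 and 38191 with MS-275 against 13575 and 9223. THBS1 was at 18172 and 19481 with A485 against 104236 and 171244, and at 287958 and 122452 with MS-275 against 107550 and 42646. The 2 within-number differences of FBLN2 were -1.90 and -2.91 with A485 and 1.19 and 1.344 with MS-275. Those of COL4A1 were -2.72 and -1.33, and 1.11 and 1.19. THBS1 overlaps THBS1-IT1, another member, and since no strand setting of the counting is given in the sources used here, reads of the pair cannot be told apart.

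Members from metabolism included HK2, hexokinase 2, which traps glucose in the cell, and SLC16A3, the exporter of lactate. HK2 was at 808 and 883 with A485 against 1651 and 1859, and at 3615 and 3076 with MS-275 against 1403 and 1537, and it was the member nearest to the limit, with a smallest difference of 1.0005. SLC16A3 was at 4012 and 4711 with A485 against 8775 and 10827, and at 17126 and 44868 with MS-275 against 6178 and 12959. Among hypoxia-inducible genes, CA12, a carbonic anhydrase, differed by -3.98 and -4.47 with A485 and by 1.14 and 1.42 with MS-275, and ADM, the vasodilator peptide adrenomedullin, by -2.49 and -2.09 and by 1.12 and 1.29. CHAC1, which degrades glutathione and is a target of ATF4, was at 298 and 316 with A485 against 2198 and 2408, and at 4642 and 11740 with MS-275 against 1744 and 5036. Its higher MS-275 library lay above both controls while the lower one, at 4642, lay between them.

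Non-coding and less abundant members showed the same opposition. SLC8A1-AS1, antisense to a sodium-calcium exchanger gene, was at 0 and 0 with A485 against 28.9 and 29.4 (at least 10.8-fold lower), and at 139 and 117 with MS-275 against 3.96 and 10.1. PKD1L1, a polycystin family gene that overlaps PKD1L1-AS1, was at 0 and 0 with A485 against 83.5 and 190 (at least 31.2-fold lower), and at 585 and 381 with MS-275 against 85.2 and 56.6. LUCAT1, a stress-induced lncRNA whose window is printed above, was at 0.843 and 1.78 with A485 against 53.5 and 37.9, and at 151 and 312 with MS-275 against 14.9 and 48.5. In all, 21 members were at 0 in both A485 libraries, 17 of them in this quadrant and 4 among the genes lower under both, and no member was at 0 in both libraries of another group. F3, tissue factor, which starts coagulation, was at 484.6 and 717 with A485 against 25721 and 29325, and at 35926 and 39551 with MS-275 against 15335 and 18976. F2RL2, a receptor for thrombin, was at 193 and 437 with A485 against 2821 and 3946, and at 9278 and 6443 with MS-275 against 4348 and 2748. SCG2, a granin of secretory granules, differed by -5.09 and -4.62 with A485 and by 1.64 and 1.67 with MS-275, SNAP25, a protein of vesicle fusion, by -1.27 and -3.60 and by 1.99 and 2.34, and DUSP4, a phosphatase of MAP kinases, by -2.25 and -4.29 and by 1.17 and 1.20.

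**Figure D2:**
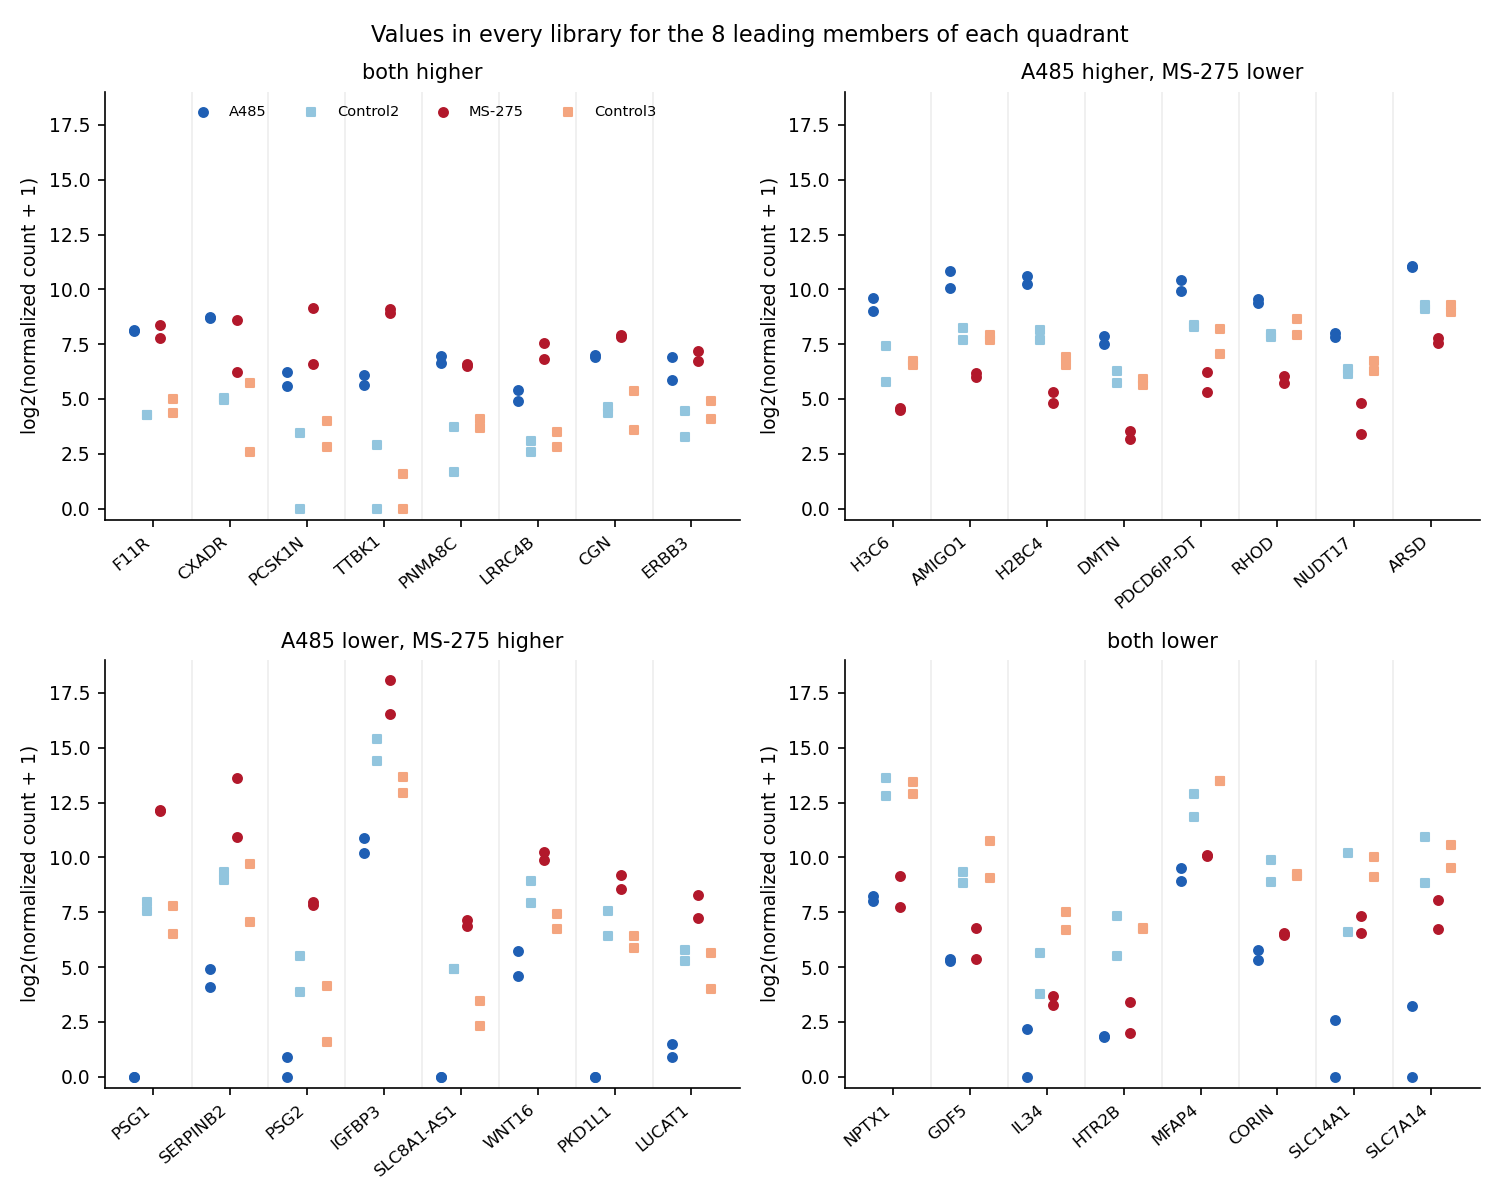
Normalized count of the 8 leading members of each quadrant in every library, as log2(normalized count + 1), 1 point per library. Circles are treated and squares control libraries, A485 and Control2 in blue and MS-275 and Control3 in red. PSG1, SLC8A1-AS1 and PKD1L1 lie at 0 in both A485 libraries and the highest points are those of IGFBP3 with MS-275 (94131 and 281590 before the log).

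Genes higher under A485 and lower under MS-275 were the smallest quadrant, with a median log2 fold change of 1.68 with A485 (range 1.12 to 3.19) and -1.70 with MS-275 (range -2.92 to -1.15). None of the 49 passed an absolute 2 in all 4 values, against 37 of the 206 in the opposite quadrant and 17 each of the genes higher under both and lower under both. Libraries did not overlap for 47 with A485, against 29.6% of all genes in that direction, and for 42 with MS-275, against 19.9%.

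It held 3 histone genes. H3C6, a gene of histone H3, was the first member by the smallest of the 4 values, 1.97. It was at 780 and 509 with A485 against 169 and 53.9 in Control2, and at 23.2 and 21.9 with MS-275 against 94.1 and 105 in Control3. H2BC4 was at 1193 and 1569 with A485 against 278 and 203, and at 38.7 and 26.9 with MS-275 against 121 and 93.0. H2BC21, the most abundant of them, was at 6383 and 5956 with A485 against 1306 and 971, and at 300 and 255 with MS-275 against 834 and 611. All treated libraries of these 3 genes lay outside their controls. Histone genes of 1 class are near-identical in sequence, and their counts may be shared between copies.

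Other members had varied roles. AMIGO1, a neuronal adhesion protein, was at 1066 and 1836 with A485 against 204 and 305, and at 63.9 and 72.7 with MS-275 against 207 and 239. ARSD, an arylsulfatase, was at 2043 and 2155 with A485 against 543 and 630, and at 184 and 220 with MS-275 against 503 and 623. RHOD, a small GTPase of endosome movement, was at 759 and 656 with A485 against 250 and 228, and at 64.9 and 51.8 with MS-275 against 240 and 397. The groups did not overlap in any of the 3. DMTN, an actin-bundling protein, differed by 1.59 and 1.77 with A485 and by -2.35 and -2.49 with MS-275, NUDT17, a nudix hydrolase, by 1.87 and 1.49 and by -2.84 and -1.93, and PDCD6IP-DT, a divergent lncRNA, by 1.53 and 2.14 and by -1.94 and -1.73. HERC6, an interferon-stimulated ubiquitin ligase family gene, was at 568 and 1450 with A485 against 169 and 362, and at 62.9 and 25.9 with MS-275 against 156 and 355.

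PCDHB5 and PCDHB7, which encode protocadherins, homophilic adhesion proteins of neurons, lie 34029 bases apart in the beta cluster on chromosome 5. PCDHB5 was at 379 and 525 with A485 against 43.9 and 52.6, and at 19.4 and 27.9 with MS-275 against 88.2 and 75.8. PCDHB7 was at 401 and 704 with A485 against 38.5 and 99.1, and at 60.03 and 42.9 with MS-275 against 153 and 137. All 14 beta genes tested were above 0 in both A485 values and 9 were below 0 in both MS-275 values, while of 21 genes of the neighbouring gamma cluster 9 were above and 7 below 0 in both A485 values. These families were also picked out after their values were seen, and reads may be split between their copies.

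**Figure D3:**
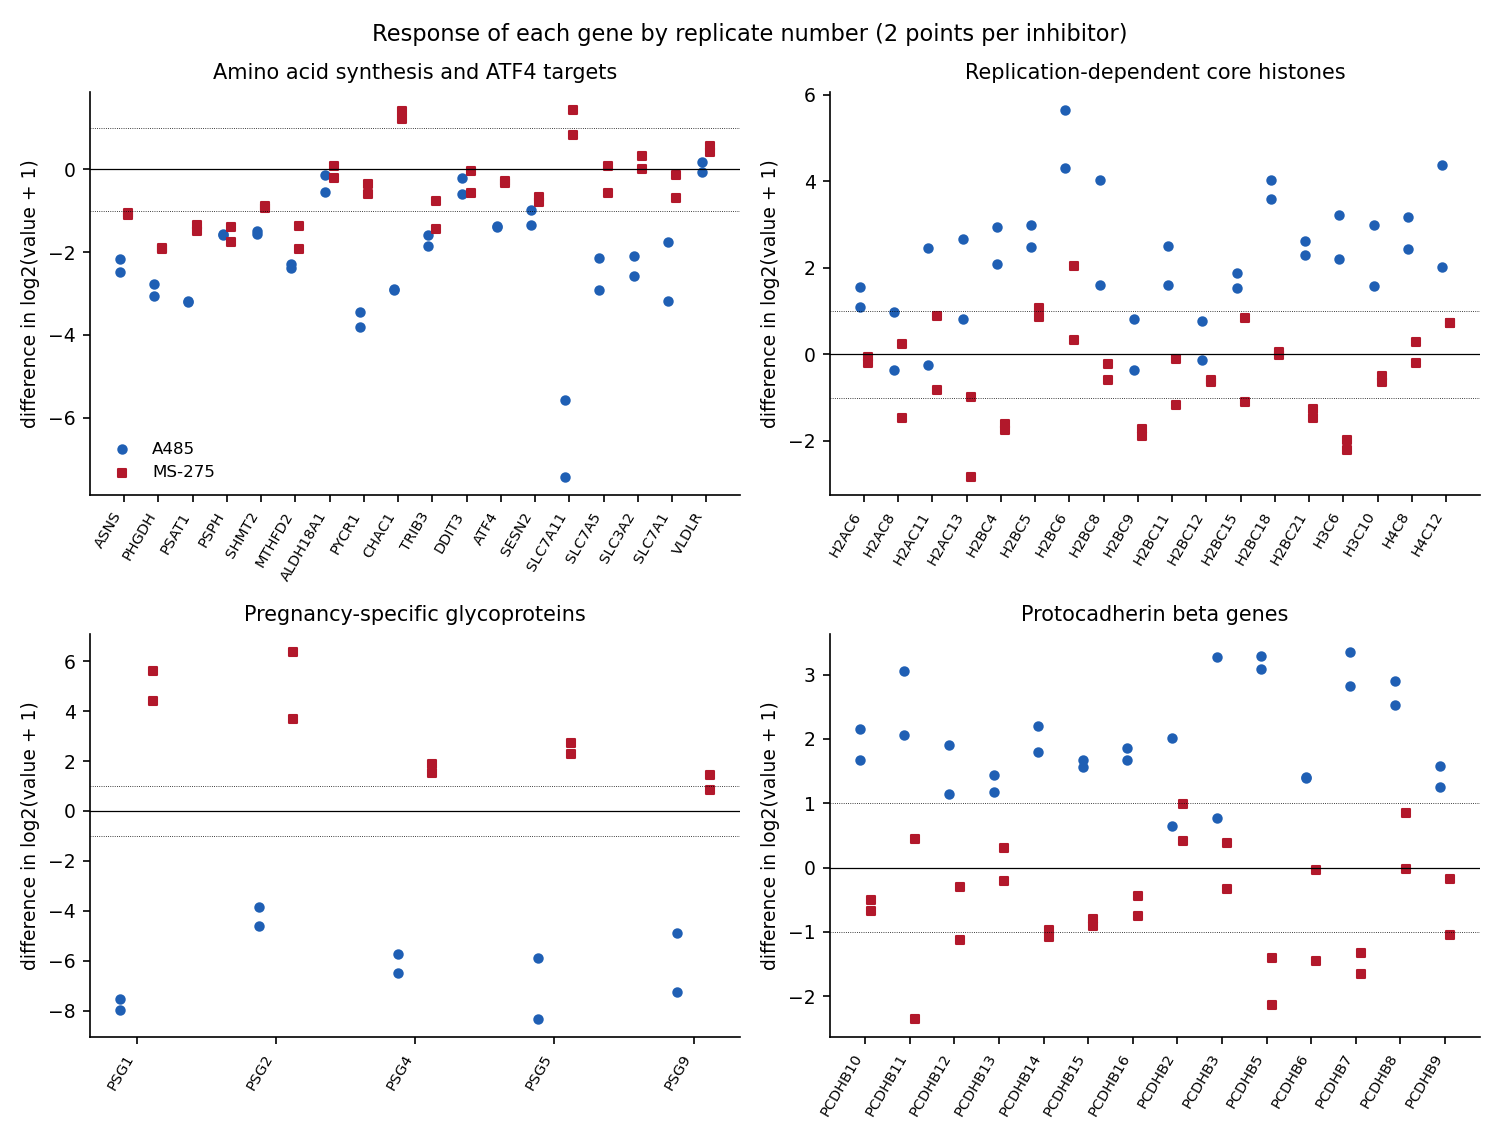
Within-number difference of the tested genes of 4 groups (amino acid synthesis and ATF4 targets, core histones, pregnancy-specific glycoproteins and protocadherin beta genes), in log2(normalized count + 1), with 2 circles for A485 against Control2 and 2 squares for MS-275 against Control3. Solid lines mark 0 and dotted lines an absolute 1. The pregnancy-specific glycoproteins lie below 0 with A485 and above 0 with MS-275 in all 5 genes, and the protocadherin beta genes above 0 with A485 in all 14.

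Genes higher under both inhibitors had a median log2 fold change of 2.16 with A485 (range 1.10 to 5.32) and 1.91 with MS-275 (range 1.05 to 8.22). Libraries did not overlap for 120 of 120 with A485, against 29.6% of all genes in that direction, and for 111 with MS-275, against 18.1%.

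Several leading genes are described by their values. F11R, junctional adhesion molecule A, was at 277 and 281 with A485 against 18.2 and 18.4 in Control2, and at 216 and 335 with MS-275 against 19.8 and 31.3 in Control3. CXADR, the tight junction protein that serves as the receptor of coxsackieviruses and adenoviruses, was at 432 and 415 with A485 against 30.0 and 31.8, and at 382 and 73.7 with MS-275 against 52.5 and 5.05. CGN, cingulin, which lies on the inner face of tight junctions, was at 118 and 127 with A485 against 23.5 and 19.6, and at 227 and 240 with MS-275 against 39.6 and 11.1. ERBB3, a receptor of neuregulins, was at 57.3 and 118 with A485 against 8.56 and 20.8, and at 105 and 144 with MS-275 against 15.8 and 29.3. Of these, every treated library was above its controls. The epithelial marker list gave no matching difference, with 38.0 and 44.5 CPM with A485 against 62.9 and 64.4, and 30.1 and 55.8 with MS-275 against 46.4 and 86.6.

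Further leading genes were PCSK1N, TTBK1, LRRC4B and PNMA8C. PCSK1N, an inhibitor of the prohormone convertase PCSK1, was at 47.2 and 74.8 with A485 against 0 and 9.79, and at 95.9 and 563 with MS-275 against 5.94 and 15.2. TTBK1, a neuronal tau kinase, was at 48.9 and 67.7 with A485 against 6.42 and 0, and at 483 and 550 with MS-275 against 1.98 and 0. LRRC4B, a postsynaptic adhesion protein, was at 42.1 and 29.4 with A485 against 7.49 and 4.90, and at 111 and 189 with MS-275 against 5.94 and 10.1. No control library of these 3 genes was above 15.2. PNMA8C, of the paraneoplastic antigen family, differed by 4.98 and 3.23 with A485 and by 2.82 and 2.49 with MS-275.

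Of 29 genes tested from the list of neuronal and synaptic genes, 3 were higher under both (SYT1, CHGB and BEX2) and 2, SCG2 and SNAP25, were lower under A485 and higher under MS-275. With A485, 4 of the 29 were called higher and 5 lower, against 3.31% and 7.06% of all genes, with a median of -0.23. SYT1, the calcium sensor of synaptic vesicles, was at 1735 and 1831 with A485 against 639 and 684, and at 2124 and 802 with MS-275 against 941 and 358, so that its lower MS-275 library lay below its higher control. CHGB, a granin, differed by 2.33 and 2.67 with A485 and by 1.51 and 4.05 with MS-275, and BEX2, a small neuronal protein, by 5.59 and 3.34 and by 2.87 and 1.72. PAM, which amidates peptide hormones, and CPE, which trims them, were chosen after their values were seen. PAM was at 24825 and 33473 with A485 against 10928 and 16643, and at 31032 and 22972 with MS-275 against 13538 and 9833, and CPE was at 2839 and 1431 against 741 and 508, and at 2003 and 1587 against 844 and 621.

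Genes lower under both inhibitors had a median log2 fold change of -2.48 with A485 (range -8.26 to -1.10) and -1.69 with MS-275 (range -4.73 to -1.06). Libraries did not overlap for 123 of 125 with A485, against 31.8% of all genes in that direction, and for 108 with MS-275, against 19.9%. NPTX1, a neuronal pentraxin, was at 258 and 306 with A485 against 7127 and 12620 in Control2, and at 569 and 209 with MS-275 against 11125 and 7578 in Control3. GDF5, a ligand of the BMP family, was at 39.6 and 37.4 with A485 against 455 and 639, and at 107 and 40.9 with MS-275 against 1721 and 539. MFAP4, a protein of elastic microfibrils, was at 480 and 721 with A485 against 3656 and 7618, and at 1095 and 1060 with MS-275 against 11499 and 11524. In the 3 genes every treated library was below its controls.

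IL34, a ligand of the CSF1 receptor, differed by -3.79 and -3.45 with A485 and by -3.39 and -3.82 with MS-275, and HTR2B, a serotonin receptor, by -3.67 and -5.47 and by -3.34 and -4.77. CORIN, the protease that activates atrial natriuretic peptide, was at 53.1 and 39.2 with A485 against 462 and 940, and at 93.0 and 87.7 with MS-275 against 564 and 612. The transporters SLC14A1, for urea, and SLC7A14 had Control2 libraries that lay far apart, at 96.3 and 1190 and at 459 and 1933, with A485 libraries at 5.06 and 0 and at 8.43 and 0. With MS-275 SLC14A1 was at 91.99 and 158 against 558 and 1029, and SLC7A14 at 269 and 106 against 1525 and 732.

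The serine synthesis pathway was complete in this quadrant. PHGDH, its first enzyme, was at 1322 and 851 with A485 against 9015 and 7085, and at 1966 and 3371 with MS-275 against 7394 and 12750. PSAT1, the next enzyme, was at 1622 and 1313 with A485 against 14861 and 11949, and at 4254 and 4886 with MS-275 against 10847 and 13654. PSPH, the last, was at 834 and 741 with A485 against 2465 and 2219, and at 717 and 881 with MS-275 against 1895 and 2967. No treated library of the 3 enzymes overlapped a control. MTHFD2, a mitochondrial enzyme of one-carbon metabolism, was at 2065 and 1497 with A485 against 10798 and 7380, and at 2432 and 2882 with MS-275 against 6285 and 10946. ASNS, asparagine synthetase, was low in every library, at 19.4 and 4.45 with A485 against 89.9 and 29.4, and at 24.2 and 24.9 with MS-275 against 51.5 and 54.6.

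Members from signalling, matrix and the cell cycle were fewer. CCL2, a chemokine of monocytes, was at 13.5 and 16.9 with A485 against 2208 and 2846, and at 1149 and 987 with MS-275 against 2399 and 3769. CXCL12, a chemokine of stromal cells, was at 54.8 and 55.2 with A485 against 6420 and 1202, and at 663 and 553 with MS-275 against 1376 and 1159. In both chemokines the A485 difference was the larger. COL15A1, a basement membrane collagen, differed by -4.69 and -7.17 with A485 and by -1.82 and -2.84 with MS-275, THBS2, thrombospondin 2, by -2.71 and -3.22 and by -1.29 and -1.16, and LTBP2, a protein related to the carriers of latent TGF-beta, by -1.42 and -1.77 and by -1.40 and -1.12. CDC20, which activates the anaphase-promoting complex, was at 377 and 398 with A485 against 4540 and 862, and at 59.1 and 45.8 with MS-275 against 1458 and 900. CENPF, a kinetochore protein, differed by -3.20 and -1.06 and by -2.83 and -1.49, TK1, thymidine kinase, by -1.74 and -1.11 and by -2.09 and -1.63, and EME1, part of a nuclease of recombination, by -1.73 and -1.02 and by -2.05 and -1.89. For these 4 genes of proliferation, the Control2 library numbered 1 was the higher control.

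The members just inside the limit of 1 and the genes just outside it differed little. Among genes higher under both, the smallest of the 4 values was 1.002 for TMEM38A and 0.995 for TRIM36. It was 1.01 for BORCS7 and 0.999 for PRR7-AS1 among genes higher under A485 and lower under MS-275, 1.0005 for HK2 and 0.995 for CSPG4BP in the opposite quadrant, and 1.002 for MIR155HG and 0.996 for SHISAL1 among genes lower under both.

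Of the 500 members, 43 belonged to a gene list, so the lists were also described over all their tested genes, whether or not they entered a quadrant. Over all 15130 genes the median log2 fold change was -0.01 with A485 and -0.02 with MS-275, with 468 called higher and 1127 lower with A485. Of 34 growth factors, 1 was called higher and 16 lower with A485, with medians of -2.04 with A485 and 0.53 with MS-275. In the difference A485 minus MS-275, 12 were called lower, against 3.2% of all genes. Of 24 matrix glycoproteins and proteoglycans 15 fell with A485 and none rose, with medians of -2.54 and -0.05. Of 24 collagens 13 fell, with medians of -1.47 and -0.15, and of 22 contractile and TGF-beta response genes 12 fell, with medians of -1.45 and -0.19. Of 19 metalloproteinase and plasminogen genes 6 fell, with medians of -1.59 and 0.44. The share that fell with A485 was above the 7.06% of all genes in each of these 5 lists, and since no gene was called with MS-275 the MS-275 medians stand without a call.

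Several genes outside the quadrants had effects that differed by test. IGFBP5, another carrier of insulin-like growth factors, was at 1607 and 625 with A485 against 238534 and 366446 in Control2, and at 395166 and 207526 with MS-275 against 328941 and 186052 in Control3, a difference between the effects of -8.41 ± 0.78 (SE, limma adjusted p = 0.0033). PLAU, urokinase, was at 459 and 612 with A485 against 19166 and 20903, and at 35113 and 30164 with MS-275 against 19353 and 20522 (-5.94 ± 0.35, limma adjusted p = 0.00071). ACTG2, a smooth muscle actin, was at 326 and 238 with A485 against 21490 and 25333, and at 22314 and 21085 with MS-275 against 25095 and 25132 (-6.17 ± 0.36, limma adjusted p = 0.00071). In all 3, A485 libraries stood far below their controls while the MS-275 libraries were near theirs or moderately above them. For DCN, the proteoglycan decorin, the difference between the effects was -4.41 ± 0.39 (limma adjusted p = 0.0026), for COL8A1, a collagen of vessel walls, -3.99 ± 0.40 (limma adjusted p = 0.0045), and for FGF1, a fibroblast growth factor, -5.19 ± 0.53 (limma adjusted p = 0.0046).

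Of 25 AP-1 and immediate early genes, 10 fell and 1 rose with A485, against 7.06% and 3.31% of all genes. Their medians were -1.03 with A485 and 0.12 with MS-275. In the difference 6 were called lower, against 3.2% of all genes. The Fos and Jun genes of the list did not move together with A485. FOSL1 and FOSL2 were called lower (log2 fold changes of -3.40 and -1.03) and JUND was the gene called higher (1.36). FOS, FOSB, JUN and JUNB were at 1.62, 0.20, 0.51 and -0.40 and did not pass. MYC, a transcription factor of cell growth, was at 340 and 263 with A485 against 2063 and 2166, and at 2068 and 2067 with MS-275 against 1614 and 1346 (-3.31 ± 0.37, limma adjusted p = 0.0058). FOSL1, the AP-1 subunit Fra-1, was at 370 and 698 with A485 against 4968 and 5832, and at 2396 and 1689 with MS-275 against 3371 and 2154 (-2.98 ± 0.55, limma adjusted p = 0.031). DUSP6, a phosphatase of ERK, differed by -3.33 ± 0.61 (limma adjusted p = 0.031).

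Of 18 amino acid synthesis genes and ATF4 targets, 14 fell with A485 and none rose, against 7.06% and 3.31% of all genes. Their medians were -2.33 with A485 and -0.45 with MS-275, and all but 1 were below 0 with A485. SLC7A11, the cystine importer, was at 105 and 266 with A485 against 18151 and 12749, and at 26872 and 4624 with MS-275 against 10017 and 2608 (-7.63 ± 1.31, limma adjusted p = 0.025). PYCR1, of proline synthesis, was at 426 and 316 with A485 against 4651 and 4472, and at 2460 and 4663 with MS-275 against 3702 and 5988 (-3.16 ± 0.55, limma adjusted p = 0.025).

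The histone list went the other way. Of 20 replication-dependent histone genes tested, 15 rose with A485 and none fell, against 3.31% of all genes, with medians of 2.17 with A485 and -0.45 with MS-275, and all 20 were above 0 with A485. Outside the quadrants, H4C8 was at 1727 and 2803 with A485 against 319 and 307, and at 165 and 265 with MS-275 against 188 and 216 (2.76 ± 0.52, limma adjusted p = 0.033). Most histone transcripts lack a poly(A) tail, so their counts depend on how RNA was selected, and the part of this in the difference was not tested.

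Glycolysis and hypoxia lists had medians of opposite sign. Of 23 glycolysis genes 5 fell with A485 and none rose, against 7.06% and 3.31% of all genes. Their medians were -0.51 with A485 and 0.89 with MS-275. SLC2A1, the glucose transporter GLUT1, was at 3624 and 4769 with A485 against 6326 and 11346, and at 31892 and 49854 with MS-275 against 5843 and 8115 (-3.56 ± 0.54, limma adjusted p = 0.016). Of 19 hypoxia-inducible genes 5 fell and 1 rose with A485, against the same shares of all genes, with medians of -0.67 and 0.81. STC2, a secreted glycoprotein, was at 306 and 525 with A485 against 36397 and 45361, and at 55583 and 62752 with MS-275 against 35583 and 43427 (-7.25 ± 0.45, limma adjusted p = 0.00083). LDHA, which makes lactate from pyruvate, was at 24674 and 17241 with A485 against 38844 and 37640, and at 57929 and 111103 with MS-275 against 24328 and 51223, with a difference between the effects of -2.07 ± 0.64 that did not pass (limma adjusted p = 0.145).

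**Figure D4:**
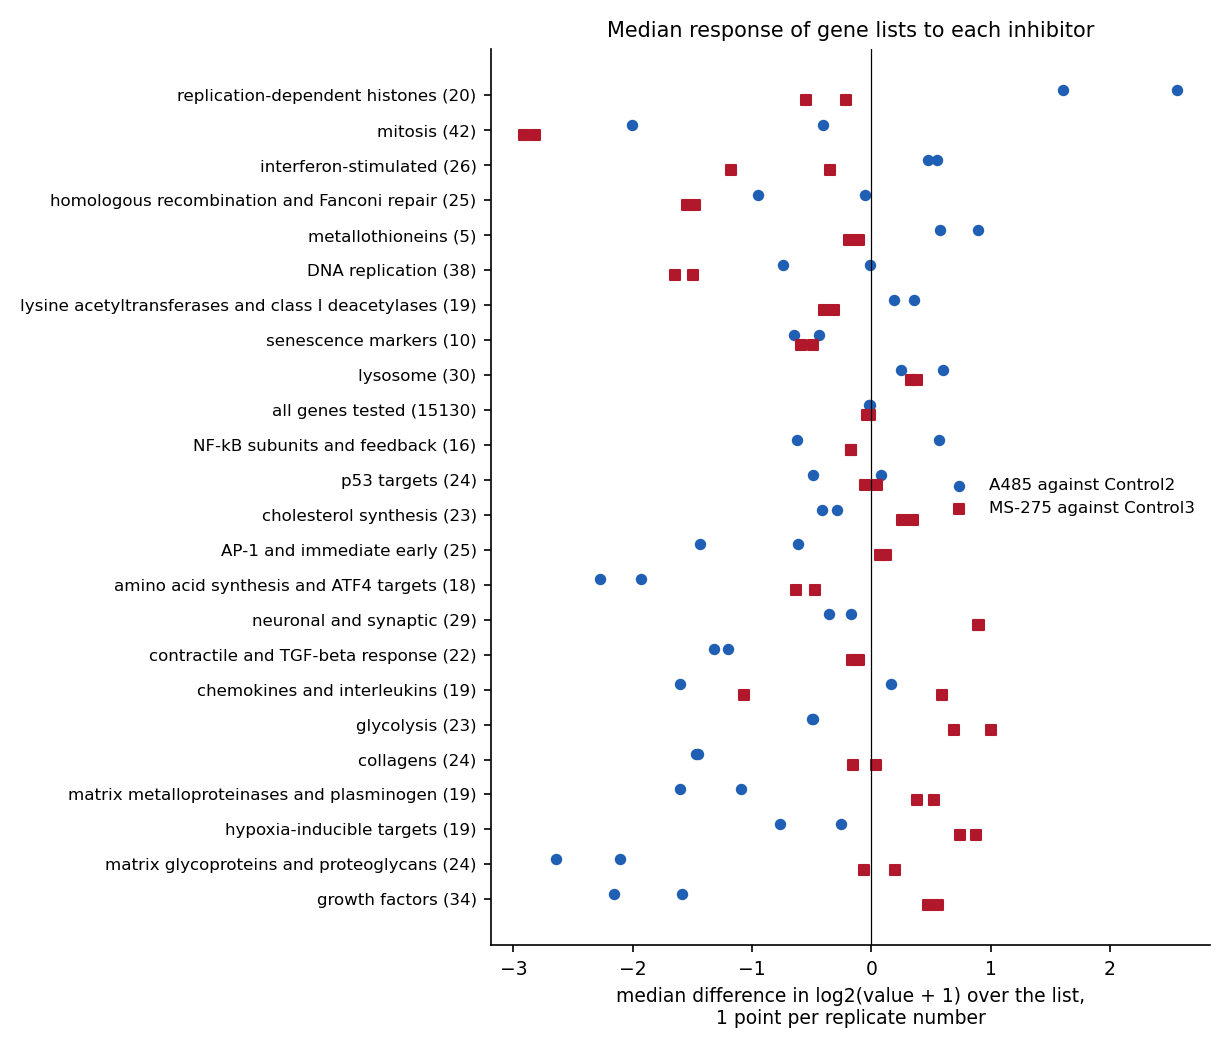
Median within-number difference of each gene list, in log2(normalized count + 1), with circles for A485 against Control2 and squares for MS-275 against Control3, 1 point per replicate number and the number of genes tested in parentheses. Lists are ordered by the median of their difference between the effects. The replication-dependent histones lie highest with A485 and the mitosis list lowest with MS-275.

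Proliferation genes were lower with MS-275 by median, were lower with A485 mainly in replicate number 1, and rarely entered a quadrant. The 42 mitosis genes had medians of -1.15 with A485 and -2.88 with MS-275, with 1 called with A485 and 2 in the quadrant lower under both. Their A485 median was -2.01 in number 1 and -0.41 in number 2. The 38 DNA replication genes had medians of -0.45 and -1.60, and the 25 homologous recombination and Fanconi genes -0.46 and -1.55, with 1 and 0 called lower with A485. Of all genes, 7.06% were called lower with A485. By number, the A485 medians were -0.74 and -0.01 for DNA replication and -0.95 and -0.05 for recombination, against -2.91 and -2.82, -1.64 and -1.49, and -1.55 and -1.47 with MS-275 for mitosis, replication and recombination. MKI67, the proliferation antigen Ki-67, was at 1639 and 1919 with A485 against 8396 and 2553, and at 256 and 34.9 with MS-275 against 4235 and 380. LMNB1, lamin B1 of the nuclear envelope, was at 1757 and 821 with A485 against 5113 and 1326, and at 151 and 124 with MS-275 against 1853 and 1065. In both genes the 2 Control2 libraries lay far apart, an A485 library of LMNB1 lay above the lower control, and neither gene passed the test with A485. With MS-275 both libraries of each gene lay below both controls, as for 19.9% of all genes. The log2 fold changes there were -3.73 for MKI67 and -3.35 for LMNB1. Neither passed, but none of the 15883 genes tested with MS-275 passed in the main fit.

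The enzymes themselves and markers of arrest did not pass the test with A485. With MS-275 none of the 15883 genes tested passed in the main fit, so a failed test there says nothing particular about these genes. The log2 fold changes of EP300, CREBBP, HDAC1, HDAC2 and HDAC3 were 0.22, 0.06, -0.01, -0.13 and 0.15 with A485 and -0.36, -0.98, 0.50, -0.07 and 0.64 with MS-275. The cell cycle inhibitors CDKN1A (p21) and CDKN2A (p16) had values of -0.64 and 0.28 with A485 and of 0.98 and 0.82 with MS-275. The remaining lists had medians of 0.58 and -0.69 (26 interferon-stimulated genes), -1.08 and -0.23 (19 chemokines and interleukins), -0.23 and 1.01 (29 neuronal and synaptic genes), -0.27 and 0.32 (23 cholesterol synthesis genes), -0.26 and 0.00 (24 p53 targets), 0.50 and 0.37 (30 lysosome genes), 0.68 and -0.15 (5 metallothioneins), 0.22 and -0.36 (19 acetyltransferase and deacetylase genes), -0.17 and -0.07 (16 NF-kB genes) and -0.61 and -0.54 (10 senescence markers), each with A485 first and MS-275 second. Some of these medians changed sign between the replicate numbers. Chemokines and interleukins were at -1.61 and 0.16 with A485 and at 0.59 and -1.07 with MS-275, NF-kB genes at -0.62 and 0.57 with A485, and p53 targets at 0.08 and -0.49 with A485. At equal totals the A485 median of all genes lay at 0.40, so A485 medians a little below 0 turn positive under that scaling.

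The quadrants were also described by annotated features that the rule did not use. Long non-coding RNA made up 20.5% of the annotated genes lower under A485 and higher under MS-275, 14.6% of those higher under A485 and lower under MS-275, 10.4% of those lower under both and 5.88% of those higher under both, against 10.7% of all genes tested. Median GC content lay between 47.4% and 50.8% in the quadrants, against 47.5% over all genes. Of the 205 placed genes lower under A485 and higher under MS-275, 35 (17.1%) had another gene of their quadrant within 100000 bases, against 4 of 119, 2 of 48 and 6 of 125 in genes higher under both, higher under A485 and lower under MS-275, and lower under both. The chance of a neighbour grows with the size of a quadrant, and no test was made. The 18 such pairs comprised 12 that lie apart and 6 that overlap, among them INHBA with INHBA-AS1 and NECTIN3 with NECTIN3-AS1. The pairs that lie apart included DLL4, a Notch ligand, with CHAC1 at 13889 bases, SERPINB7 with SERPINB2 at 66316 bases, and PSG5 with PSG4 at 6166 bases.

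The members were next followed in IMR90 cells given pyruvate, the precursor of lactate, against their own untreated controls (Control6), 2 libraries each with 24179065 to 30156436 reads. These libraries had no part in choosing the quadrants. The paper states that pyruvate was given to senescent cells. MKI67 was at 2995 and 2999 with pyruvate against 161 and 71.6 in Control6, and LMNB1 at 2347 and 2283 against 107 and 111. CDKN2A was at 197 and 212 against 1627.5 and 2115, and CDKN1A at 9790 and 9869 against 35198 and 36767. The part of proliferation and senescence in the values below was not tested. Over 12013 genes 31% were called higher with pyruvate and 23.1% lower, that is 3726 and 2777 genes, and at equal totals 4402 and 1741. Of the 88 genes lower under both inhibitors that were tested, 35 (39.8%) were called higher and 9 (10.2%) lower, with a median log2 fold change of 0.70. Of the 39 genes higher under both, 1 (2.56%) was called higher and 23 (59.0%) lower, with a median of -1.38. Of the 29 genes higher under A485 and lower under MS-275, 3 were called higher and 13 (44.8%) lower, with a median of -0.82. Of the 131 genes lower under A485 and higher under MS-275, 26 (19.8%) were called higher and 45 (34.4%) lower, with a median of -0.24. The median over all 11989 genes shared with this experiment was -0.01. The genes tested made up 70.4%, 32.5%, 59.2% and 63.6% of their quadrants in that order, against 79.2% of all genes. The shares called therefore cover only part of each quadrant, least of all for genes higher under both. Those genes were low in untreated cells, with a median level of 33.9 in Control2 against 762 over all genes. A gene that low can pass the filter on the mean through the group where it is high. The part of this in the direction of the calls was not tested. Across all genes the pyruvate effect was related to GC content (Spearman's rho = -0.70), and the members tested had median GC contents of 52.1%, 50.8%, 50.2% and 49.3% in the order just given. The part of GC content in these values was not tested.

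Among genes lower under both inhibitors, the serine and one-carbon enzymes rose with pyruvate. PSAT1 rose by 3.63 on the log2 scale, PHGDH by 2.15, PSPH by 1.41 and MTHFD2 by 3.77. CENPF rose by 3.32 and CXCL12 by 2.77, and CTHRC1 and FAP, a secreted glycoprotein and a surface protease of activated fibroblasts, rose by 3.91 and 2.26. GDF5 fell by 2.76 and HSPB6, a small heat shock protein, fell by 2.70. Among genes higher under both, TMEM38A, a potassium channel of the endoplasmic reticulum, fell by 4.96, APLP1, a relative of the amyloid precursor, fell by 2.43 and CPE fell by 1.38, while PDK3, a kinase that inhibits pyruvate dehydrogenase, was the gene that rose, by 1.09. Among genes higher under A485 and lower under MS-275, AMIGO1 fell by 3.18, H2BC21 fell by 3.01 and H2BC4 fell by 2.75. Among genes lower under A485 and higher under MS-275 both directions were common, with AMIGO2, LUM and INHBA rising by 3.81, 2.07 and 1.78, while PSG1 fell by 2.41, MMP3 fell by 1.79 and ADM fell by 1.73.

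**Figure D5:**
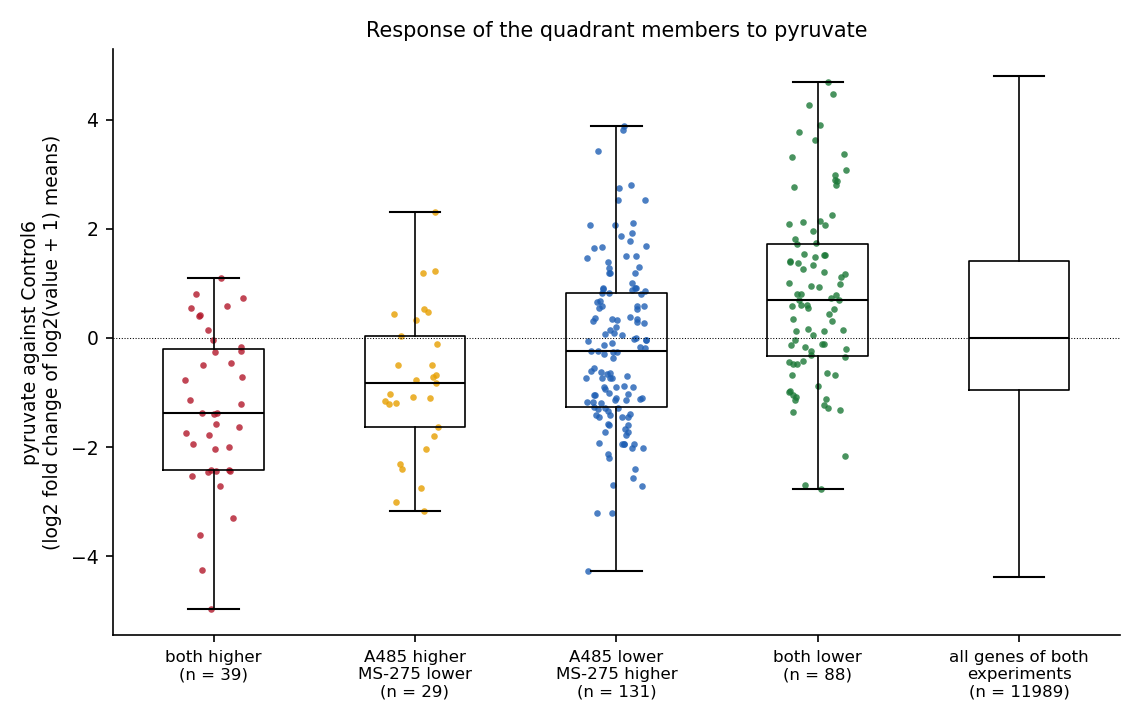
Log2 fold change with pyruvate against Control6 of the members of each quadrant and of all genes shared by the experiments, on the log2(normalized count + 1) scale. Points are genes, boxes span the quartiles with the median as a line, and whiskers reach the most extreme gene within 1.5 box lengths. The medians are -1.38 for genes higher under both, -0.82, -0.24 and 0.70 for genes lower under both, against -0.01 over all genes.

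MS-275 was also given to mice, with gastrocnemius muscle of wild-type animals measured against untreated muscle (Control4), 2 libraries each with 10836858 to 12428070 reads. Genes were matched by symbol ignoring case, which pairs most orthologs but not all. Of 9494 genes tested 9.24% were called higher and 6.97% lower, that is 877 and 662. Without muscle MS-275 library 1 no gene was called, although 2689 had an unadjusted p under 0.05, and without muscle MS-275 library 2, Control4 library 1 or Control4 library 2 the counts were 293 and 460, 270 and 84, and 666 and 207. Few members were measured there, with 49, 10, 48 and 37 tested for genes higher under both, higher under A485 and lower under MS-275, the opposite, and lower under both. Of these 5, 0, 5 and 7 were called higher and 2, 1, 4 and 3 lower, so that 10.2%, 0%, 10.4% and 18.9% were called higher against 9.24% of all genes. The 27 members called in either direction became 0, 16, 6 and 22 without those libraries in turn. Among the called members, 26 had separate treated and control libraries in both muscle and IMR90 cells. Of these 14 moved the same way in both and 12 (46.2%) the opposite way, against 45.6% opposite among all such genes. MMP3, lower under A485 and higher under MS-275 in IMR90 cells, was at 4201 and 2381 in treated muscle against 46.7 and 45.2, a log2 fold change of 6.07 (limma adjusted p = 0.0043). PSPH, which was lower with MS-275 in IMR90 cells, also fell in muscle, by 2.48. Both lost their call without muscle MS-275 library 1 and kept it without each of the other 3. At equal totals the median of all genes in muscle lay at 0.95 and 2790 genes were called higher and 184 lower, so small differences there depend on the scaling.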

How the data were processed

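RNA-seq values of 4 experiments were used, A485 and MS-275 in IMR90 cells as the main ones and pyruvate in IMR90 cells and MS-275 in mouse muscle for comparison, with 2 treated and 2 control libraries each. The authors trimmed reads with Trim Galore 0.6.10, mapped them with HISAT2 2.2.1 to hg38 or mm10, sorted them with SAMtools 1.7, counted them per gene with featureCounts 2.0.6 and divided each library by a DESeq2 1.34.0 size factor. The gene annotation and the strand setting are not given in the sources used here. The deposited values are therefore a normalized signal per gene, not whole counts, and each experiment was scaled apart from the others. Libraries of mouse muscle given NALA and their controls were not used.

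From the deposited signal, log2(value + 1) was compared with limma 3.58.1 in R 4.3.3 (empirical Bayes with a trend), with Benjamini-Hochberg adjustment over all genes tested. Calls needed an adjusted p below 0.05 and a log2 fold change beyond 1 in either direction. All fold changes are on the log2(value + 1) scale, which understates the change of low genes. Genes with a mean under 10 in an experiment were left out. The difference between the effects was a contrast in which each effect was taken within its own table. Values were whole multiples of 1 read in 100% of cases within a tolerance of 0.1 in every library, so edgeR 4.0.16 and DESeq2 1.42.0 were run for A485 on the recovered reads as alternatives. They were not run for MS-275 or for the difference, since 1 read there was worth 0.968 to 1.01 normalized counts, and a step that near 1 did not pass the check used to tell reads from rounding. When simulated data for 15130 genes carried 200 with a log2 change of 4, limma recovered 69% for A485, 26.5% for MS-275 and 67.5% for the difference, and 0% in each at a change of 2.

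Named genes were the 8 members of each quadrant with the largest smallest value among those whose highest group mean reached 100, members of a gene list, 10 genes of the enzymes, lactate production and arrest, genes on either side of the limit, and up to 4 genes per list called in the difference. A few genes that this rule names are not reported here. The members, the gene lists and this rule were chosen with earlier results of these data known. Counts, promoter windows and figures were made in Python 3.11.15 with numpy 2.4.6, pandas 2.3.3 and matplotlib 3.10.9. The alternatives tried were other pseudocounts, limits, filters and scalings, pairing by replicate number, and leaving out each library in turn. The 2 libraries of a group always differed by more than sampling noise, with a chi-square per gene of 4.54 to 456.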

Additional observations from a re-analysis of the deposited data

Results flagged for a closer look

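Of the members, 27 were called with MS-275 in mouse muscle, and 12 of these lay on the other side of 0 in IMR90 cells, with treated and control libraries separate in both. The 27 were 18.8% of the 144 members tested in muscle, against 15.7% of all 5017 genes tested in both, and against 16.2% of all genes tested in muscle. Among called genes whose libraries were separate in both, 12 of 26 members (46.2%) were opposite, against 134 of 294 of all such genes (45.6%), so both shares were near the background. Of the 12, 0, 6, 1 and 6 kept their muscle call without muscle MS-275 library 1, muscle MS-275 library 2, Control4 library 1 and Control4 library 2. The 12 genes were flagged because muscle and IMR90 cells moved in opposite directions with the same inhibitor. The difference between muscle and cells was not tested, the species and tissues differ, and the values belong to separately normalized experiments. HK2, which phosphorylates glucose, had a log2 fold change of -1.06 in muscle and of 1.18 in IMR90 cells. IL18, an inflammasome cytokine, was at -2.29 and 2.30, and ABCC3, an exporter of organic anions, at -2.59 and 1.47. RTN4RL2, a receptor of myelin proteins, was at -1.41 and 2.67. These 4 genes were lower under A485 in IMR90 cells. LMTK3, a kinase of neurons, was at -2.36 in muscle and 3.85 in IMR90 cells, and NOXA1, an activator of NADPH oxidase, at -1.79 and 1.39, and both were higher under A485. The other 6 were higher in muscle and were lower under both inhibitors in IMR90 cells. CORIN, the natriuretic peptide protease, was at 1.79 and -2.69, and SCARA3, a scavenger receptor, at 4.20 and -1.38. PCK2, the mitochondrial phosphoenolpyruvate carboxykinase, was at 1.71 and -1.42, and AKNA, an AT-hook protein, at 3.01 and -1.39. The matrix enzyme LOXL1 and the procollagen processing enhancer PCOLCE were at 1.83 and -1.18 and at 1.78 and -1.26. With muscle libraries scaled to equal totals, HK2 was at -0.10 and RTN4RL2 at -0.45 in muscle.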

How the results depend on the processing

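Counts are given in the order higher under both, higher under A485 and lower under MS-275, the opposite, and lower under both. They were 83, 27, 160 and 97 at a pseudocount of 10, 68, 24, 121 and 88 at a minimum mean of 50, 155, 117, 135 and 120 at equal library totals, 121, 66, 175 and 126 after quantile normalization, 343, 210, 457 and 379 at a limit of 0.58, 17, 0, 37 and 17 at a limit of 2, 92, 30, 114 and 72 with crossed replicate numbers, and 71, 19, 100 and 56 when all 4 treated-control pairs of each inhibitor had to pass, which 246 of the 500 members did. With 1 replicate number left out they ran from 301 to 315, 133 to 213, 386 to 415 and 322 to 358, since fewer values had to pass. Equal totals and quantile normalization kept 382 and 436 of the members in their quadrant.

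Of genes called, A485 gave 258 higher and 582 lower without the trend, 1669 and 915 at equal totals, 542 and 1122 with edgeR and 782 and 1543 with DESeq2, and the difference between the effects gave 224 and 330 at equal totals. edgeR and DESeq2 were not run for MS-275 or the difference. Leaving out 1 library, with the lone sample of a group assumed to vary like the others, gave 2 to 196 higher and 114 to 648 lower for A485, 0 to 292 and 0 to 149 for MS-275, and 5 to 65 and 125 to 372 for the difference. The counts for A485 were lowest without either A485 library (3 and 114, 2 and 165), and MS-275 gained most calls without Control3 library 1 or 2 (292 and 98, 270 and 149). The 62 gene-list members called in the difference, of which the text names only some, were chosen by that call. None of them reversed under any alternative, but 10 lost the call at equal totals, 8 after quantile normalization, and others without 1 library.

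Treated and control samples share replicate numbers. Deviations of same-numbered samples correlated at 0.316 for A485, 0.728 for MS-275, 0.0020 for pyruvate and -0.110 for muscle. With 2 pairs and no label naming what a number marks, the main limma fits did not pair the samples by number. The quadrant rule did compare libraries of the same number, and 246 of its 500 members also passed with all 4 pairs of each inhibitor. With the replicate block, A485 gave 870 higher and 1616 lower, MS-275 1230 and 953 and the difference 1216 and 1894. The 62 gene-list members called in the difference kept their call. For muscle the block gave 909 and 647, and the crossed pairing, added after seeing the data, 1031 and 699, against 877 and 662.

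List medians of the difference between the effects, less that of all genes, were after quantile normalization -1.15 for glycolysis, -1.26 for metalloproteinases and plasminogen, -1.16 for collagens, -0.94 for contractile genes, 1.41 for metallothioneins, -0.79 for amino acid synthesis and 0.28 for lysosome. Without 1 library they ran from 0.36 to 1.68 for DNA replication, 0.88 to 2.69 for mitosis, 0.33 to 1.66 for recombination and Fanconi repair, -1.79 to -1.04 for glycolysis, -2.06 to -1.24 for hypoxia, -0.87 to 1.10 for NF-kB, 0.36 to 2.18 for interferon, -2.53 to -1.16 for metalloproteinases and plasminogen, -1.87 to -0.95 for collagens, -2.92 to -1.27 for matrix glycoproteins, -1.50 to -1.14 for contractile genes, -0.89 to -0.32 for cholesterol synthesis, 0.66 to 1.65 for metallothioneins, -1.37 to -0.67 for amino acid synthesis, -0.17 to 0.27 for lysosome, -1.50 to -1.16 for neuronal genes, 0.17 to 0.59 for senescence markers and -3.19 to -2.67 for growth factors. Those of chemokines and interleukins changed sign, from -3.38 to 0.57. Pyruvate medians on the same footing were -1.69 for genes higher under both, -0.39 for genes lower under A485 and higher under MS-275 and 0.52 for genes lower under both after quantile normalization, and without 1 library ran from -1.39 to -1.32 for genes higher under both, -1.05 to -0.78 for genes higher under A485 and lower under MS-275, -0.32 to -0.18 for the opposite quadrant and 0.59 to 0.72 for genes lower under both. In muscle they were 0.46 for genes higher under A485 and lower under MS-275 after quantile normalization, and -0.025 and -0.054 for the opposite quadrant at equal totals and after quantile normalization, and without 1 library ran from -0.16 to 0.047 for the opposite quadrant and 0.18 to 0.73 for genes lower under both. The causes were not tested. Libraries of a group differed by more than counting error, so their spread limits the comparisons more than depth does, apart from members at 0 reads.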
